A study of Homo sapiens with 12 samples.

Results

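Described here are 9 genes that are known from other work as targets of both STAT3 and the glucocorticoid receptor: CEBPB, CEBPD, CEBPG, NNMT, MYC, PIM1, PIM3, BCL3 and BCL6. They were taken by symbol from the 26364 genes of a read count table. All 9 of the 9 were found there, and all 9 passed the filter on low counts that left 14184 genes for testing.

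STAT3 is a transcription factor that is switched on by cytokines such as IL-6 through JAK kinases, pairs with itself through its SH2 domain and binds DNA at spaced palindromes. The glucocorticoid receptor is a hormone-gated transcription factor that binds DNA directly at glucocorticoid response elements and can also meet STAT3 at shared enhancers. C/EBPβ and C/EBPδ, made from CEBPB and CEBPD, are bZIP transcription factors that drive acute-phase genes with STAT3. C/EBPγ, from CEBPG, is a family member that pairs with other bZIP factors. NNMT is the enzyme that methylates nicotinamide and so uses up methyl groups from S-adenosylmethionine. MYC is a growth-promoting transcription factor, PIM1 and PIM3 are survival kinases, BCL3 is an atypical IκB protein that acts in the nucleus with NF-κB p50 and p52, and BCL6 is a zinc-finger repressor.

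The study used MDA-MB-231, a human breast cancer cell line of mesenchymal character that lacks the estrogen receptor. The 4 treatments, of 3 wells each, lasted 24 h: 1 µM dexamethasone (DEX) plus 8 µM SH4-54, 1 µM DEX alone, 8 µM SH4-54 alone, and no drug. DEX is a synthetic glucocorticoid, and SH4-54 is a small-molecule inhibitor made to bind the SH2 domain of STAT3. All groups share the cell line, so each value describes 1 line. No vehicle is named for the no-drug wells in the labels. RNA was sequenced in bulk, so a change in the share of cells that express a gene and a change in RNA per cell cannot be told apart. Replicates were separate wells, and p-values measure only the spread between wells.

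Libraries held 25577213 to 35758236 counted reads. The DEX response was present: FKBP5, a glucocorticoid target that holds the receptor in its chaperone complex, averaged 218 ± 47.1 CPM (read counts scaled to library size; mean ± SD, n = 3) with both compounds and 326 ± 17.5 with DEX, against 54.3 ± 2.26 with SH4-54 and 53.9 ± 1.56 with no drug. TSC22D3, the glucocorticoid-induced leucine zipper, rose 12.6-fold with DEX over no drug. The receptor's own gene, NR3C1, fell with DEX by 0.84 on the log2 scale. STAT3 mRNA itself rose by 0.19 ± 0.0396 on the log2 scale with DEX against no drug, fell by 0.15 ± 0.0396 with both compounds against DEX (a call lost without replicate 2 of the wells with both compounds, -0.11, adjusted p = 0.0597), and gave -0.03 ± 0.0397 with SH4-54 against no drug. The counts hold no measure of STAT3 phosphorylation. The mesenchymal markers VIM, CD44, ZEB1, CAV1 and AXL were present in every library and ESR1 and PGR were at or near 0, while ERBB2 (73.8 to 90.4 CPM), CDH1 (5.29 to 15.1) and EPCAM (17.3 to 23.2), which were listed as low or absent in this line, were detected. The 3 wells with both compounds lay further apart than the wells of other groups, at -22.3, -31.4 and -13 on the second principal component, which held 17.5% of the variance. HSPA6, a heat-shock gene looked at after its values were seen, had 150, 483 and 156 CPM in these wells, against 0.232, 0.308 and 0.641 with DEX, 25.4, 27.1 and 19.4 with SH4-54 and 0.501, 0.265 and 0.457 with no drug.

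With DEX against no drug, all 9 genes changed. CEBPB, CEBPD, NNMT, MYC, PIM1, PIM3 and BCL6 rose, and CEBPG and BCL3 fell. With SH4-54 alone, 0 of the 9 changed in edgeR, at an adjusted or an unadjusted p below 0.05, and 0 in DESeq2's Wald test, which gave BCL3 no adjusted p. With both compounds against SH4-54 alone the same 7 rose and the same 2 fell, and with both against no drug 6 rose, 2 fell and PIM1 missed the threshold, with log2 changes from -0.68 for BCL3 to 2.42 for NNMT. With both compounds against DEX alone, NNMT and BCL6 fell and 7 did not pass the test. A gene was counted as changed at a Benjamini-Hochberg adjusted p below 0.05 over the 14184 genes in edgeR's quasi-likelihood test, and every adjusted p below comes from that test. These counts stand beside a wide response to DEX in the whole table, where 21.9% of tested genes rose and 23.2% fell with DEX against no drug. The shares were 20.1% and 20.3% for both compounds against SH4-54, and 21.1% and 21.6% for both against no drug. For both compounds against DEX, 13% rose and 13.5% fell, so 2 of 9 fallen is near what the whole table shows. For SH4-54 against no drug, 0.268% rose and 0.331% fell. The median log2 change of the 9 was 0.489 with DEX against no drug, beside -0.0111 over all tested genes, and 0.00692 with SH4-54 against no drug, beside -0.00363. The 9 were chosen with earlier results of these data known, so their counts and medians beside the whole table are a description only. Comparisons against the same group share that group's wells.

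**Figure D1:**
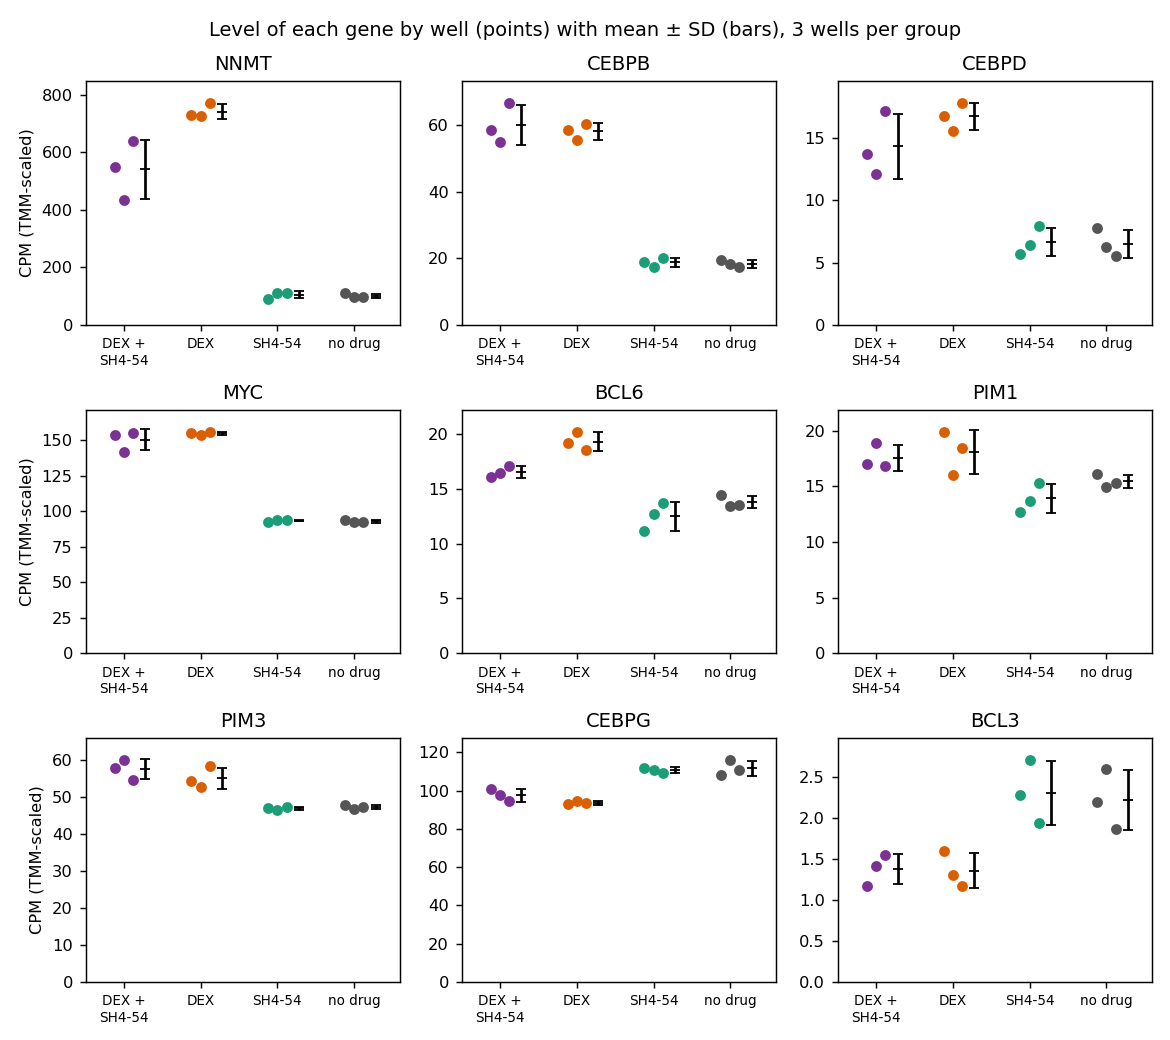
Level of each of the 9 genes in CPM (y axes, each starting at 0 with its own scale) in the 12 wells, by treatment; points are wells in replicate order and bars are the mean ± SD of 3 wells. In 8 of the panels all wells with DEX lie on one side of all wells without it. In the PIM1 panel a DEX well at 16 lies below a no-drug well at 16.1. How many of all tested genes separate in this way was not counted, so the 8 describe the panels only. NNMT spans 435 to 638 CPM with both compounds and 725 to 771 with DEX.

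CEBPB rose with DEX both in the presence and in the absence of SH4-54. Its level was 58.4, 54.9 and 66.6 CPM in the wells with both compounds, 58.4, 55.5 and 60.4 with DEX, 18.9, 17.3 and 20.1 with SH4-54, and 19.6, 18.2 and 17.3 with no drug. The DEX wells and the wells with both compounds overlapped, the SH4-54 and no-drug wells overlapped, and no well of the first pair of groups reached the second. DEX against no drug gave a 3.16-fold rise (log2 1.66 ± 0.0743 SE, adjusted p = 1.92e-10), the 135th largest increase of the 14184 genes. Both compounds against SH4-54 gave a log2 change of 1.68 ± 0.0746. The effect of SH4-54 was 0.03 (95% interval -0.14 to 0.2) without DEX and 0.05 (-0.1 to 0.2) with it, and the difference between these effects, the interaction, was 0.02 with an interval of -0.21 to 0.24.

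CEBPD was also high in both groups given DEX, by less than CEBPB. It had 13.7, 12.1 and 17.2 CPM with both compounds, 16.8, 15.6 and 17.8 with DEX, 5.7, 6.42 and 7.91 with SH4-54, and 7.76, 6.23 and 5.55 with no drug. The lowest well with DEX present lay above the highest well without it. DEX against no drug raised it 2.55-fold (log2 1.35 ± 0.144, adjusted p = 2.1e-06), and both compounds against SH4-54 gave 1.11 ± 0.146. With both compounds against DEX alone the change was -0.21 (interval -0.5 to 0.07, adjusted p = 0.259), which did not pass. That comparison turns on 1 well: without replicate 3 of the wells with both compounds, the change was -0.39 with an adjusted p of 0.0286. The interaction was -0.24 (interval -0.68 to 0.2).

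CEBPG moved the other way and by little. Its level was 101, 97.5 and 94.4 CPM with both compounds, 92.9, 94.8 and 93.3 with DEX, 112, 111 and 109 with SH4-54, and 108, 116 and 111 with no drug. All 6 wells with DEX lay below all 6 wells without it. It fell by 0.25 ± 0.0343 on the log2 scale with DEX against no drug (adjusted p = 2.67e-05) and by 0.18 ± 0.0343 with both compounds against SH4-54, while SH4-54 against no drug gave -0.01 (interval -0.08 to 0.06). Both compounds against DEX gave 0.06 (interval -0.02 to 0.13), and the interaction was 0.07 (interval -0.04 to 0.17).

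Of the 9 other C/EBP and bZIP partner genes tested, of 12 listed, 2 rose and 4 fell with DEX against no drug, with a list median of -0.472. Beside this and each later list, 21.9% of all tested genes rose and 23.2% fell with DEX, and no list was tested as a set. BATF, an AP-1 family partner, rose by a log2 change of 1.47 ± 0.096 (adjusted p = 1.08e-08), and NFIL3, a bZIP repressor, by 0.66 ± 0.0619. CEBPA, the family member that stops proliferation in differentiating cells, went against CEBPB: it had 4.35, 3.91 and 3.78 CPM with both compounds, 2.55, 2.74 and 2.34 with DEX, 6.94, 7.85 and 7.45 with SH4-54, and 8.51, 8.29 and 6.82 with no drug. The wells with both compounds all lay between those with DEX and those without it. CEBPA fell with DEX by 1.63 ± 0.116 (adjusted p = 2.62e-08), and its interaction was 0.74 ± 0.161 (adjusted p = 0.0226), a call lost in 6 of the 12 fits that leave out 1 library. DDIT3, the stress-induced family member CHOP, had an interaction of 0.49 ± 0.12 (adjusted p = 0.0386), lost in 11 of those 12 fits.

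Among acute-phase and inflammatory genes linked to C/EBP factors, 10 of 21 listed were tested, and 5 rose and 3 fell with DEX. SAA1, an acute-phase apolipoprotein gene, had 83.7, 70.2 and 107 CPM with both compounds, 135, 134 and 137 with DEX, 9.86, 13.1 and 13.9 with SH4-54, and 12.8, 15.4 and 16 with no drug. SAA1 rose with DEX by a log2 change of 3.2 ± 0.138 (adjusted p = 1.3e-10), SAA2 by 2.17 ± 0.152 and the chemokine gene CXCL8 by 1.12 ± 0.0969. SAA1 and SAA2 are near-identical copies, so the division of reads between them is uncertain. C3, the central complement component, had 3.3, 3.59 and 5.49 CPM with both compounds, 10.2, 8.08 and 9.76 with DEX, 2.78, 3.68 and 4.21 with SH4-54, and 3.6, 2.25 and 2.28 with no drug. Its wells with both compounds overlapped those with SH4-54 alone, and its interaction was -1.53 ± 0.304 (adjusted p = 0.0149) and was called in all 12 fits that leave out 1 library. PTX3, a pentraxin, and PTGS2, cyclooxygenase-2, had interactions of 0.33 ± 0.0783 and 0.96 ± 0.243, calls lost in 8 and 10 of the 12.

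MYC rose less than NNMT, CEBPB and CEBPD but with the smallest standard error of the 9 in that comparison. It had 154, 142 and 155 CPM with both compounds, 155, 154 and 156 with DEX, 92.7, 93.6 and 93.5 with SH4-54, and 93.8, 92.2 and 92.3 with no drug. The wells within each of the 3 groups other than the combination lay within a few CPM of each other, and the groups with and without DEX did not meet. DEX against no drug raised MYC 1.67-fold (log2 0.74 ± 0.0339, adjusted p = 2.44e-10), and both compounds against SH4-54 gave 0.69 ± 0.034. SH4-54 changed it by 0.01 (interval -0.07 to 0.08) without DEX and by -0.04 (interval -0.12 to 0.03) with DEX, and the interaction was -0.05 (interval -0.15 to 0.05).

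Of 13 tested genes of the MYC and MAX network, 3 rose and 1 fell with DEX. Only the 3 called genes of smallest p are named. Of these, MXI1 (0.37 ± 0.0572) and MXD4 (0.24 ± 0.0638), MAX-binding repressors, rose and MXD3, another, fell by 0.47 ± 0.0773. With 1 library left out 2 to 4 rose, the fewest without DEX replicate 1. Without DEX replicate 1, no-drug replicate 1 or replicate 1 of the wells with both compounds, 2 fell. MXI1 had 19.1, 17.2 and 19.9 CPM with both compounds, 22.7, 23.5 and 23.9 with DEX, 19, 19.8 and 20.5 with SH4-54, and 18.7, 17.7 and 18 with no drug. The DEX wells stood alone above the other 9, and the interaction was -0.44 ± 0.0814 (adjusted p = 0.0108). Among 21 tested genes listed as activated by MYC, 6 rose and 0 fell with DEX against no drug in edgeR, with a median of 0.0167 and 1 lower at an unadjusted p below 0.05. POLR1B, an RNA polymerase I subunit, LDHA, lactate dehydrogenase A, and SRM, spermidine synthase, rose by 0.26 ± 0.0361, 0.34 ± 0.0594 and 0.28 ± 0.0595 on the log2 scale. With both compounds against no drug, 13 rose and 0 fell, 0 also at an unadjusted p below 0.05, with a median of 0.15. Of all tested genes 21.1% rose and 21.6% fell there, with a median of 0.00431. The 13 risen ranged over 9 to 16 when 1 library was left out, the lowest without replicate 1 of the no-drug wells. CDC25A, a cell-cycle phosphatase, had the only interaction called in this list (0.29 ± 0.0751, adjusted p = 0.0475), and the call was lost in 10 of 12 fits that leave out 1 library.

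NNMT had the largest response of the 9 and was the 49th most increased of the 14184 genes. It had 550, 435 and 638 CPM with both compounds, 730, 725 and 771 with DEX, 90.5, 110 and 112 with SH4-54, and 110, 96.9 and 96.7 with no drug. The wells with both compounds all lay below the DEX wells and far above the wells without DEX. DEX against no drug raised it 7.33-fold (log2 2.87 ± 0.114, adjusted p = 5.55e-11), and both compounds against SH4-54 raised it 5.2-fold (2.38 ± 0.112). SH4-54 without DEX gave 0.04 (interval -0.2 to 0.27, adjusted p = 0.922). SH4-54 on top of DEX lowered it, with a log2 change of -0.46 ± 0.105 (interval -0.68 to -0.23, adjusted p = 0.00575), a level 0.729 times that with DEX alone.

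The interaction for NNMT was -0.5 ± 0.152 (interval -0.82 to -0.17) and did not pass over all genes (adjusted p = 0.0809). It passed without replicate 3 of the wells with both compounds (-0.65, adjusted p = 0.00394) and without replicate 1 of the SH4-54 wells (-0.59, adjusted p = 0.0445). Of all tested genes, 2.44% had a called positive interaction and 1.46% a negative one. Of the 9 genes, 0 had either in edgeR or in DESeq2 on the filtered genes of all 12 libraries, and at an unadjusted p below 0.05 in edgeR NNMT alone did. With no count filter, edgeR called it for NNMT (-0.5, adjusted p = 0.00753). Within the wells with both compounds, replicate 2 had the highest HSPA6. This well was lowest for NNMT, CEBPD, CEBPB and MYC, highest for PIM1 and PIM3, and between the others for CEBPG, BCL3 and BCL6. Replicates 1 and 3, close in HSPA6, had 550 and 638 CPM of NNMT. In wells 1 to 3 with both compounds, FKBP5 had 202, 181 and 271 CPM. FKBP5 itself had an interaction of -0.59 ± 0.148 (adjusted p = 0.0397), a call lost in 11 of 12 fits that leave out 1 library, with values of -0.8 to -0.48. The part of the heat-shock level in the NNMT difference was not tested.

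**Figure D2:**
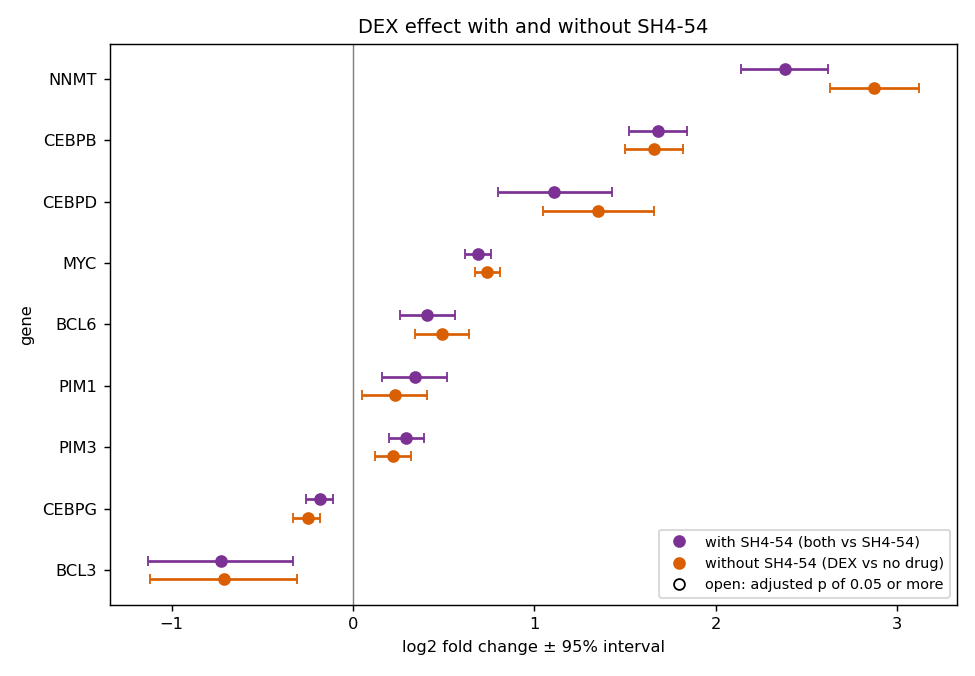
Log2 fold change with DEX for each of the 9 genes (rows) when SH4-54 was present (both against SH4-54, upper point) and absent (DEX against no drug, lower point), with 95% intervals. All 18 points are filled, meaning an adjusted p below 0.05, and each gene's pair lies on the same side of 0, with NNMT at 2.38 and 2.87.

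**Figure D3:**
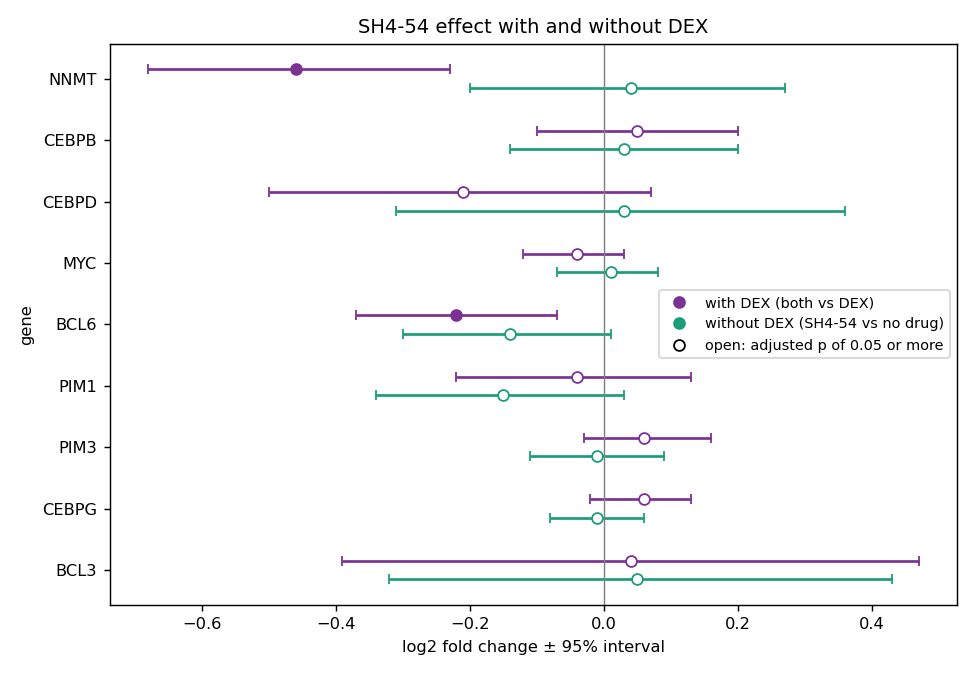
Log2 fold change with SH4-54 for each of the 9 genes when DEX was present (both against DEX, upper point) and absent (SH4-54 against no drug, lower point), with 95% intervals; open points did not pass. Only NNMT (-0.46) and BCL6 (-0.22), both with DEX present, are filled.

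The enzymes around NNMT were read from a list of nicotinamide, NAD and methyl-group genes, of which 20 of 24 were tested. With DEX 9 rose and 5 fell, with a median of 0.132. AOX1, aldehyde oxidase, which oxidises methylnicotinamide, the product of NNMT, had 74.8, 76 and 74.7 CPM with both compounds, 92.5, 97.1 and 98.6 with DEX, 43.5, 41.2 and 41.6 with SH4-54, and 44.4, 44.5 and 45.6 with no drug. As for NNMT, its wells with both compounds all lay between the DEX wells and the rest. AOX1 rose by 1.1 ± 0.0361 with DEX (adjusted p = 8.92e-12), fell with both compounds against DEX by 0.35 ± 0.0352 (adjusted p = 1.35e-05) and had an interaction of -0.26 ± 0.0512 (adjusted p = 0.0143), called in all 12 fits that leave out 1 library. NT5E, an ectonucleotidase, fell with DEX by 0.72 ± 0.034 and SIRT1, an NAD-dependent deacetylase, by 0.35 ± 0.0493. With both compounds against DEX, 1 of the 20 rose and 5 fell, beside 13% and 13.5% of all tested genes. The list median was -0.00865 there, beside 0.00475 over all tested genes. The number that fell was 2 without replicate 1 of the wells with both compounds.

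PIM1 and PIM3 changed least among the genes that rose. PIM1 had 17, 18.9 and 16.8 CPM with both compounds, 19.9, 16 and 18.4 with DEX, 12.7, 13.7 and 15.3 with SH4-54, and 16.1, 14.9 and 15.3 with no drug. Its DEX and no-drug wells overlapped, and the rise of 0.23 ± 0.0833 on the log2 scale had an adjusted p of 0.035. That call was lost without DEX replicate 1 (0.16, adjusted p = 0.165), DEX replicate 3 (0.22, 0.0898), no-drug replicate 2 (0.21, 0.111) or no-drug replicate 3 (0.23, 0.0784). Both compounds against SH4-54 gave 0.34 ± 0.0846 (adjusted p = 0.00508), and both against no drug gave 0.19 (adjusted p = 0.0844). SH4-54 against no drug gave -0.15 (interval -0.34 to 0.03), and the interaction was 0.11 (interval -0.14 to 0.36).

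PIM3 had 57.9, 59.9 and 54.6 CPM with both compounds, 54.2, 52.6 and 58.2 with DEX, 47, 46.5 and 47.2 with SH4-54, and 47.7, 46.8 and 47.1 with no drug. Every well with DEX lay above every well without it. The rise was 0.22 ± 0.0449 with DEX against no drug (adjusted p = 0.000983) and 0.29 ± 0.0449 with both compounds against SH4-54. SH4-54 gave -0.01 (interval -0.11 to 0.09) without DEX and 0.06 (interval -0.03 to 0.16) with it, and the interaction was 0.07 (interval -0.06 to 0.21).

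The third PIM kinase, PIM2, was listed with PIM substrates and fell with DEX by 0.29: it had 20, 20.4 and 19.1 CPM with both compounds, 19.7, 18.7 and 18.8 with DEX, 21.7, 23.1 and 23.4 with SH4-54, and 23.1, 23.6 and 23.2 with no drug. Of the 12 tested genes in that list, PIM2 included, 1 rose and 4 fell with DEX, with a median of -0.135, and 3 rose without replicate 3 of the wells with both compounds. CDKN1A, the cyclin-dependent kinase inhibitor p21, rose by 1.01 ± 0.0484 (adjusted p = 4.04e-10), while CDKN1B, the inhibitor p27, fell by 0.49 ± 0.0335 and CDC25C, a mitotic phosphatase, by 0.84 ± 0.0571.

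BCL3 had the lowest counts of the 9, so its precision is the poorest. The wells with both compounds held 30, 39 and 55 reads (1.17, 1.41 and 1.54 CPM), the DEX wells 41, 38 and 31 (1.59, 1.3 and 1.17 CPM), the SH4-54 wells 66, 72 and 50 (2.27, 2.7 and 1.93 CPM) and the no-drug wells 70, 78 and 53 (2.19, 2.59 and 1.86 CPM). All wells with DEX lay below all wells without it. BCL3 fell with DEX by 0.71 ± 0.189 on the log2 scale (adjusted p = 0.00624) and with both compounds against SH4-54 by 0.73 ± 0.187 (adjusted p = 0.006). The interval of the SH4-54 effect was wide, -0.32 to 0.43 without DEX and -0.39 to 0.47 with it, as was that of the interaction, -0.59 to 0.56.

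Among the 10 NF-κB subunits and other IκB proteins, 1 rose and 5 fell with DEX, with a median of -0.189. With 1 library left out, 4 to 5 fell. The count was 5 only without DEX replicate 2 or replicate 2 of the wells with both compounds. With both compounds against DEX, 6 rose and 0 fell, with 1 lower at an unadjusted p below 0.05. Of all tested genes 13% rose and 13.5% fell in that comparison. NFKBIA, the IκBα inhibitor and a known glucocorticoid target, rose with DEX by 1.07 ± 0.0601 (adjusted p = 2.07e-09), and it had 141, 122 and 130 CPM with both compounds and 126, 123 and 131 with DEX, against 60.2, 69.8 and 71 with SH4-54 and 62.1, 59.9 and 59.4 with no drug. NFKBIZ, another atypical IκB protein, fell by 0.68 ± 0.0481 and NFKBIE, IκBε, by 0.55 ± 0.0834. RELB, the partner of p52, had 12.9, 15 and 12.6 CPM with both compounds, 7, 8.19 and 8.21 with DEX, 12.4, 13.3 and 13.1 with SH4-54, and 11.1, 11 and 11.5 with no drug. Its DEX wells were the lowest 3 of 12, and its interaction was 0.58 ± 0.112 (adjusted p = 0.0143), called in all 12 fits that leave out 1 library. The 6 that rose with both compounds against DEX were 3 without replicate 2 of the wells with both compounds, the well with the highest HSPA6, and the part of that well's heat-shock level was not tested.

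The promoter of BCL6 is shown because it alone, of 9 windows of 300 bases around annotated start sites of 6 of the genes, held the STAT spaced palindrome TTCNNNGAA. Windows ran from 250 bases before to 50 after each RefSeq start site (GRCh38.p14) and were searched on both strands. The window is at chr3:187745419-187745718 on the minus strand, with the 4 matches in capitals:
BCL6: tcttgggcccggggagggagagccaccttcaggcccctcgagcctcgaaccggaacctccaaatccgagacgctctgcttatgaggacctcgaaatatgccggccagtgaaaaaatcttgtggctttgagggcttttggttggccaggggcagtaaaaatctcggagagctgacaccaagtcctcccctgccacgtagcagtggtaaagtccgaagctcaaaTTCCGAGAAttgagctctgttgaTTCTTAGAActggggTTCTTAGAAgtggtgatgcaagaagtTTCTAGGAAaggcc
The matches, which do not overlap, begin at -28, -5, 11 and 37 from the start site. Of 35116 windows of this length, 7.66% held at least 1 such match and 0.0199% held 4 or more. The glucocorticoid receptor half-site AGAACA, found in 14.8% of windows, matched once in the members, in a second BCL6 window, and neither the C/EBP core TTGCNNAA (10.5% of windows) nor the E-box CACGTG (7.26%) matched any of the 9 windows. CEBPD, MYC and NNMT were not searched. A match of letters is a description of the window and shows no binding.

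BCL6 had 16.1, 16.4 and 17.1 CPM with both compounds, 19.2, 20.2 and 18.5 with DEX, 11.1, 12.7 and 13.7 with SH4-54, and 14.4, 13.4 and 13.5 with no drug. The wells with both compounds all lay below those with DEX and above those without it, while the SH4-54 and no-drug wells overlapped. It rose with DEX by 0.49 ± 0.0699 (adjusted p = 4.28e-05) and with both compounds against SH4-54 by 0.41 ± 0.0718. With both compounds against DEX it fell by 0.22 ± 0.0689 (interval -0.37 to -0.07, adjusted p = 0.0279). That call was lost without DEX replicate 1 (-0.23, adjusted p = 0.0596), DEX replicate 2 (-0.19, 0.106), or replicate 1 (-0.2, 0.0833) or 2 (-0.22, 0.0757) of the wells with both compounds. SH4-54 against no drug gave -0.14 (interval -0.3 to 0.01, adjusted p = 0.42), and the interaction was -0.08 (interval -0.29 to 0.14), so a smaller effect of SH4-54 without DEX was not shown.

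Of 10 tested BCL6 corepressors, which include subunits of the NCoR complex, 1 rose and 3 fell with DEX, beside 21.9% and 23.2% of all tested genes. TBL1XR1 rose by 0.35 ± 0.0368, and TBL1X fell by 0.32 ± 0.0803 and NCOR1 by 0.11 ± 0.0429. The NCOR1 call was lost in 7 of 12 fits that leave out 1 library and kept in only 2 of 7 other settings (adjusted p = 0.0643 in DESeq2). The 3 that fell were 1 without DEX replicate 2 or 3, no-drug replicate 1 or 2, or replicate 3 of the wells with both compounds. Of 12 tested genes listed as repressed by BCL6, 3 rose and 5 fell with DEX. CDKN1A, given above with the PIM substrates, is also on this list and rose by 1.01 ± 0.0484 (adjusted p = 4.04e-10). ID2, an inhibitor of bHLH factors, had 51.3, 54.3 and 35.2 CPM with both compounds, 17.6, 17 and 17 with DEX, 64.8, 73.3 and 75.8 with SH4-54, and 73.2, 72.6 and 65.7 with no drug. It fell with DEX by 2.04 ± 0.124 (adjusted p = 4.92e-09), and its interaction was 1.43 ± 0.168 (adjusted p = 0.000717). SOCS2, a cytokine signalling suppressor, had 40.4, 45.1 and 40.1 CPM with both compounds, 35.5, 34.9 and 36.7 with DEX, 77.8, 77.4 and 78.7 with SH4-54, and 89.9, 93.3 and 96.8 with no drug. Its fall was 1.39 ± 0.0466 with DEX, and it also fell with SH4-54 alone by 0.26 ± 0.0445 (adjusted p = 0.0124). That second call was lost in 4 of 12 fits that leave out 1 library: without no-drug replicate 2 (adjusted p = 0.0778) or 3 (0.0879), or SH4-54 replicate 1 (0.0543) or 2 (0.0693). The interactions of ID2 and SOCS2 were called in all 12 fits that leave out 1 library, SOCS2 with 0.49 ± 0.0652 (adjusted p = 0.00185).

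Of 17 other tested STAT3 target genes, 8 rose and 7 fell with DEX, with a median of 0.0359. FOSL2, an AP-1 factor, fell by 0.65 ± 0.0376, BIRC5, the survivin gene, fell by 0.53 ± 0.0369, and MCL1, which blocks apoptosis, rose by 0.62 ± 0.0397. With SH4-54 against no drug 1 of the 17 changed, FOS, an immediate-early AP-1 factor, which rose. Of all tested genes 0.268% rose and 0.331% fell there. FOS had 24.1, 37.5 and 17.6 CPM with both compounds, 1.32, 1.13 and 1.13 with DEX, 7.35, 6.98 and 4.75 with SH4-54, and 1.85, 1.66 and 1.69 with no drug. SH4-54 alone raised it by 1.88 ± 0.295 (adjusted p = 0.00849), a call lost without no-drug replicate 2 (1.85, adjusted p = 0.0507), which leaves 0 of the 17 called, and the interaction was 2.58 ± 0.451 (adjusted p = 0.00919). BIRC5 and OSMR, the oncostatin M receptor, had interactions of 0.23 ± 0.0521 and -0.36 ± 0.0856, calls lost in 6 and 9 of 12 fits that leave out 1 library.

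**Figure D4:**
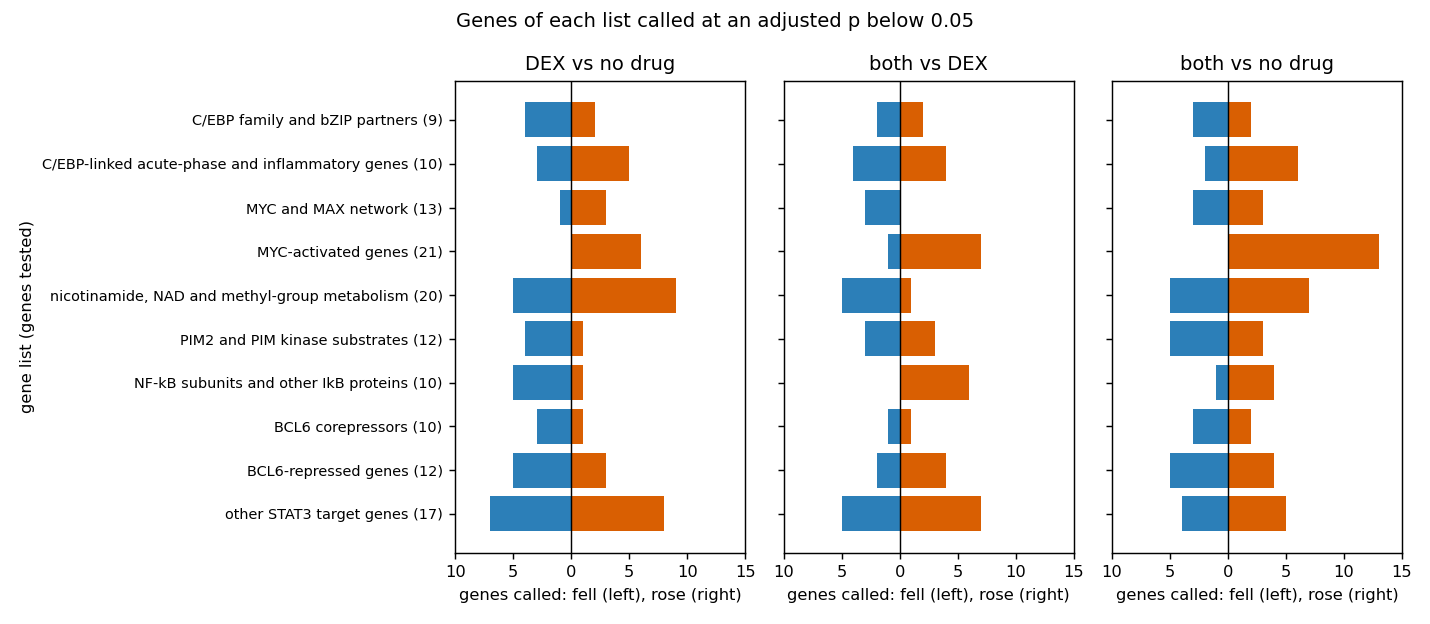
Numbers of tested genes in each of 10 lists (rows, tested genes in parentheses) that rose (right of 0) or fell (left) at an adjusted p below 0.05, for DEX against no drug, both compounds against DEX, and both against no drug. Over all tested genes the shares risen and fallen were 21.9% and 23.2%, 13% and 13.5%, and 21.1% and 21.6% in that order. MYC-activated genes had 13 risen and 0 fallen with both against no drug, and the NF-κB list had 1 risen and 5 fallen with DEX. With 1 library left out, the 13 risen ranged over 9 to 16 and the 5 fallen over 4 to 5.

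The genes whose profiles over the 12 libraries lay nearest to those of the leading members were found among 10484 genes of at least 5 CPM on average, by the root mean square difference of log2 CPM centred on each gene's mean. Nearest to CEBPB were KRT7 (0.108), PLXNA2 (0.119) and PROSER2 (0.129), and nearest to CEBPD were ZNF608 (0.103), ERRFI1 (0.125) and FBXO32 (0.151). Nearest to MYC were SHROOM3 (0.0436), CCND3 (0.0471) and LTBR (0.0505), and nearest to NNMT were VSTM2L (0.0905), TFCP2L1 (0.119) and VIPR1 (0.14). VSTM2L had 94.6, 80.2 and 116 CPM with both compounds, 147, 137 and 151 with DEX, 15.5, 18.7 and 18.4 with SH4-54, and 22.1, 18 and 18.3 with no drug. It was picked for a profile near that of NNMT, so the order of groups with DEX that they share is no separate result.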

How the data were processed

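Total RNA from 12 wells of MDA-MB-231 cells, 3 per treatment, was sequenced. As deposited by the authors, the values are raw whole-number counts, 1 row per symbol. HISAT2 2.1.0, SAMtools, featureCounts 1.5.1 and the build hg19 (GRCh37) are named in the submitters' processing notes. No source used here gives the annotation, the strand setting or the treatment of multi-mapped reads, so near-identical and overlapping genes are uncertain. Titles gave groups and replicate numbers, since a treatment tag reads SH5-54 for the SH4-54 wells.

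From these, edgeR 4.0.16 (R 4.3.3, limma 3.58.1) gave the tests reported. Genes passing filterByExpr, 14184 of 26364, were scaled by TMM and fitted with the 4 groups by glmQLFit over 12 libraries, with 8 residual degrees of freedom, and tested by glmQLFTest with Benjamini-Hochberg adjustment over all of them. The standard error is the log2 fold change divided by the square root of F. Intervals are at 95% and use the test's total degrees of freedom, which add a prior shared across genes to the residual ones. CPM uses TMM-scaled library sizes. The pipeline was tested on simulated data. DESeq2 1.42.0, other scalings, filters, fits and left-out libraries were alternatives.

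The 9 members and 10 gene lists were chosen with earlier results of these data known. Besides the members, the text names 4 checks of the treatments, 10 marker genes of the cell line, the 3 nearest profiles of 4 members, and from each list the 3 called genes of smallest p for DEX against no drug and for the interaction; PIM2 and HSPA6 were added after their values were seen. Promoter letters are RefSeq's, and 6 of the 9 members were searched; CEBPD, MYC and NNMT were not.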

Additional observations from a re-analysis of the deposited data

How the results depend on the processing

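Of 1016 recomputed values of the 9 genes, 980 kept their direction and their side of the threshold, 9 lost a call, 5 gained one and 22 changed sign. All sign changes came from leaving out 1 library and concern uncalled values near 0. For SH4-54 against no drug the log2 change then ranged from -0.02 to 0.09 for CEBPB, -0.11 to 0.17 for CEBPD, -0.03 to 0.02 for CEBPG, -0.01 to 0.13 for NNMT and -0.07 to 0.18 for BCL3. For both compounds against DEX it ranged from -0.05 to 0.11 for CEBPB, -0.13 to 0.03 for PIM1 and -0.08 to 0.16 for BCL3, and for the interaction from -0.09 to 0.08 for CEBPB and -0.14 to 0.11 for BCL3. For both compounds against DEX, 1 to 3 of the 9 were called when 1 library was left out. For the interaction 0 to 1 were called then, and 1, NNMT, with no count filter (-0.5, adjusted p = 0.00753; range over all settings 0.00394 to 0.178); the cause was not tested. NNMT with both compounds against DEX was called throughout, between -0.61 and -0.32. The fit of both compounds and no drug alone also called PIM1 there (0.19, adjusted p = 0.0431).

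Same-numbered wells of different groups had deviations correlated at -0.0975 to 0.0926, and differently numbered wells at -0.107 to 0.142. The labels do not say whether a number marks a shared plate or day, and these correlations cannot decide it. With the replicate number as a block, 8 rather than 9 of the genes were called with DEX, since PIM1 (0.23) had an adjusted p of 0.05, and the interaction was called for 394 rather than 553 genes. Under the block the interactions of DDIT3, PTX3, PTGS2, CDC25A and FKBP5 and the DEX call of NCOR1 were lost as well, at adjusted p values of 0.053 (PTGS2) to 0.0645 (NCOR1). NCOR1 was also lost with DESeq2's size factors (0.062), its Wald test (0.0643), no count filter (0.0524) and a stricter one (0.0534), and CDC25A with DESeq2's size factors (0.0546). These settings for genes outside the 9 were chosen after seeing the data. Over all genes, SH4-54 against no drug gave 85 calls, against 185 in DESeq2, 176 with no count filter, 155 with those groups alone and 26 to 163 with 1 library left out. The interaction gave 848 calls with no count filter and 204 to 2046 with 1 library left out, and both compounds against DEX gave 3770, with a lowest count of 2213 without replicate 2 of the wells with both compounds. The interaction could not be fitted on compared groups alone, and 1 adjusted p that DESeq2 left empty was not counted. Low counts limit BCL3 most.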
